A study of Mus musculus with 38 samples.

Results

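Nuclear-encoded subunits of the oxidative phosphorylation machinery were followed through mouse oocyte maturation and the first cleavages. The members were all protein-coding genes whose symbols begin with Nduf followed by a, b, c, s or v and a digit, with Uqcr, with Cox4 to Cox8 or with Atp5, which gave 77 of the 23125 genes in the table. Of these, 35 belong to complex I, 8 to complex III, 18 to complex IV and 16 to complex V. Ndufa4 and Ndufa4l2 carry complex I names and were placed with complex IV, where the Ndufa4 protein is now assigned. RNA was sequenced from a polysome and a non-polysome pool of sucrose gradients at 6 stages, with 3 libraries per stage and pool, 36 libraries in all.

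Oocytes and embryos came from ICR mice at least 6 weeks old, an outbred stock. GV oocytes are arrested in meiotic prophase, and they were kept there by the phosphodiesterase inhibitor IBMX during isolation. MII oocytes are in the second meiotic metaphase, and they were reached by 12 h of culture without the inhibitor. Zygotes and two-cell embryos were in interphase. Zygote M and two-cell M libraries carry a treatment label that names meiosis although they are embryos, and their groups were taken from the titles. These embryos were held in M-phase with nocodazole, which depolymerizes microtubules, so that M-phase and drug cannot be told apart in the embryos, whereas MII oocytes had no nocodazole. Each gradient gave 10 fractions, of which 5 were pooled as polysomes, meaning mRNA loaded with several ribosomes, and 5 as the non-polysome pool. Cycloheximide had been used to hold ribosomes on the mRNA. Each library is a pool of many cells. Replicates are lettered in the headers and are called biological replicates in the study, and the p-values measure the spread between these libraries.

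Values are fragments per kilobase of transcript and library size (FPKM), a level relative to the rest of the same library. A change in relative level cannot tell fewer mRNA molecules per cell from more RNA of other genes, and a polysome value cannot be set against a non-polysome value as a number of molecules. Changes were tested on log2 FPKM with limma in one fit of all 36 libraries, and a member was called at a Benjamini-Hochberg adjusted p under 0.05 over all 7967 genes tested together with a fold change over 2. Genes with a geometric mean under 0.1 FPKM were left out of the tests, and 69 of the 77 members passed this minimum. Ndufa12, Ndufs1, Ndufs4, Cox4i2, Cox7a1, Cox8c, Ndufa4l2 and Atp5s did not pass.

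Oxidative phosphorylation couples electron transport in the inner mitochondrial membrane to ATP synthesis. Complex I takes electrons from NADH, complex III passes them from ubiquinol to cytochrome c, complex IV hands them to oxygen, and complex V, the ATP synthase, uses the resulting proton gradient to make ATP. Most subunits are encoded in the nucleus, translated on cytosolic ribosomes and imported, while a few are made inside the organelle from mitochondrial DNA. Mouse oocytes and cleavage embryos inherit all their mitochondria from the oocyte and rely largely on oxidation of pyruvate for energy, with little glycolysis before the later cleavages.

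Promoter windows are shown for 4 members that moved in different ways across the stages, because transcription factors of the NRF1 and ETS (NRF2/GABP) families are known regulators of respiratory chain genes in other cells. Each window runs from 250 bases before to 50 bases after the RefSeq transcript start, on GRCm38.p6, and was matched by symbol for 61 of the 77 members. Capitals mark the 8-base NRF1 core CGCATGCG and the ETS core CCGGAA or its reverse complement TTCCGG. Ndufv1, the flavoprotein at the NADH site of complex I, had the largest fold change between MII and zygote M among members that reached 10 FPKM, and its window is chr19:4012706-4013005, minus strand. Ndufa11, an accessory membrane subunit of complex I, was also high in MII, and its window is chr17:56717512-56717811, plus strand. Cox8a, a small membrane subunit of complex IV, had the highest mean polysome level of all members, and its window is chr19:7217567-7217866, minus strand. Cox6a1, another small complex IV subunit, was low in MII, and its window is chr5:115348909-115349208, minus strand.
Ndufv1: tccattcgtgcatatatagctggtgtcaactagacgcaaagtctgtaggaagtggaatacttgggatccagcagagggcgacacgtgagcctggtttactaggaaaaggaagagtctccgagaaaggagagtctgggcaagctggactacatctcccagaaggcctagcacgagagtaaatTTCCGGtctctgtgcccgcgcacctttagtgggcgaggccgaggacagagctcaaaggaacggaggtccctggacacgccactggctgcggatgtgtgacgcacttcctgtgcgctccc
Ndufa11: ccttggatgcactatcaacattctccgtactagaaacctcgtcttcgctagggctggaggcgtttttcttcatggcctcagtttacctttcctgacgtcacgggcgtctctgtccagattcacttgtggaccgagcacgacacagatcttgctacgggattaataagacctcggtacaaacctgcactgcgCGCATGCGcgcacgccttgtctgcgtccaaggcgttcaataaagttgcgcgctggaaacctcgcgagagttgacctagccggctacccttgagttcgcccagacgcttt
Cox8a: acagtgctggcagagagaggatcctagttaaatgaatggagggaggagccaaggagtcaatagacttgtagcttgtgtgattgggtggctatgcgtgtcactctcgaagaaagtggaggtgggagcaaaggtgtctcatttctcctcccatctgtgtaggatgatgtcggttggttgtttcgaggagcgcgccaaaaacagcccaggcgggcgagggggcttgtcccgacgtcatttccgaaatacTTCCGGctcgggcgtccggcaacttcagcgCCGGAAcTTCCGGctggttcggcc
Cox6a1: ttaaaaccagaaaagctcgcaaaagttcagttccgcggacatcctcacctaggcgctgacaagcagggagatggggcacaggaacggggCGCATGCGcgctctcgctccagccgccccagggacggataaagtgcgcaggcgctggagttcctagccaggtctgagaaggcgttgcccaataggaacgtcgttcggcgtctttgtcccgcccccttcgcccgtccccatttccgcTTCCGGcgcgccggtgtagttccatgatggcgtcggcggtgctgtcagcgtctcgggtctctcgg

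The NRF1 core was present in the windows of 9 of the 61 members, Atp5g2, Atp5j, Atp5k, Atp5l, Cox6a1, Ndufa11, Ndufa8, Uqcr11 and Uqcrc1, or 14.8%, and in 2.07% of the 27025 genes with a window. The ETS core was present in 23 members, or 37.7%, and in 16.7% of all genes with a window. Cox8a held 3 ETS cores and Ndufv1 held 1, and neither held the NRF1 core. Members with the NRF1 core were not of one pattern over the stages, since Ndufa11 and Atp5g2 were high in MII polysomes and Cox6a1 was low there. A match is a description of the sequence and not a bound site. The study describes transcription as silenced in fully grown oocytes, with activation of the zygotic genome at the two-cell stage. The relation of the cores to the polysome levels was not tested.

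The depth behind the values could be estimated but not recovered. In each library the low values of single-transcript genes pile up at the value that 1 read would give, which puts the depth between 8490000 and 26660000 fragments, lowest in 1 non-polysome library of two-cell M. At a depth of 20000000 fragments 1 read on the Cox8a transcript is worth 0.091 FPKM and 1 read on Ndufv1 0.030 FPKM, so levels under about 0.1 FPKM rest on very few reads, and the deposited values end at a floor of 0.01. Across members, replicate libraries correlated most closely in MII polysomes (r 0.985 to 0.989) and zygote polysomes (0.984 to 0.989) and less closely in two-cell non-polysome libraries (0.586 to 0.713), two-cell M non-polysome libraries (0.613 to 0.851) and two-cell M polysomes (0.672 to 0.708). The summed level of 8 oocyte markers lay between 5075 and 6801 FPKM in GV polysomes, 1511 and 1710 in MII, 1861 and 2110 in zygotes, 429 and 638.5 in zygote M, 521 and 577 at the interphase two-cell stage and 48.3 and 188 in two-cell M. Of the granulosa and cumulus markers 8 of 10 had a row, and their summed level was at most 0.24 FPKM in GV, zygote, zygote M and two-cell polysomes, 0.79 to 4.74 in MII polysomes, up to 3.07 in two-cell M polysomes, and up to 23.6 in a non-polysome MII library and 20.1 in a two-cell one. Nearly all of the higher sums came from a single gene. This was Inha in MII polysomes, in MII non-polysome replicate C (23.5 FPKM) and in two-cell non-polysome replicate B (20.1). In two-cell M polysome replicate B it was Amh (2.81 FPKM). The summed level of 4 erythroid markers lay between 34.3 and 83.7 FPKM in two-cell polysomes, between 24.4 and 42.5 in two-cell M polysomes and between 99.7 and 162 in two-cell non-polysome libraries, against at most 1.33 in the polysomes of the other stages. The part of these cells or transcripts in the results of any stage was not tested.

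Most members changed across the stages in polysomes, and MII was the stage at which most of them stood highest. Limma's moderated F-test over the 6 polysome means was past an adjusted p of 0.05 for 57 of the 69 tested members, or 82.6%, against 62.9% of all tested genes. The mean polysome level was highest in MII for 36 members, or 52.2%, and in GV for 21, or 30.4%, while among all tested genes 23.6% were highest in MII and 23.3% in GV. Complex I had 20 of its 32 tested members highest in MII and complex V had 8 of 15. In the non-polysome pool 44 members, or 63.8%, were highest in MII against 19.4% of all tested genes. The stage of the highest mean was the same in both pools for 51 of 69 members, or 73.9%, and for 48.6% of all tested genes. The 6 members that were lowest in MII polysomes all belong to complex IV.

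**Figure D1:**
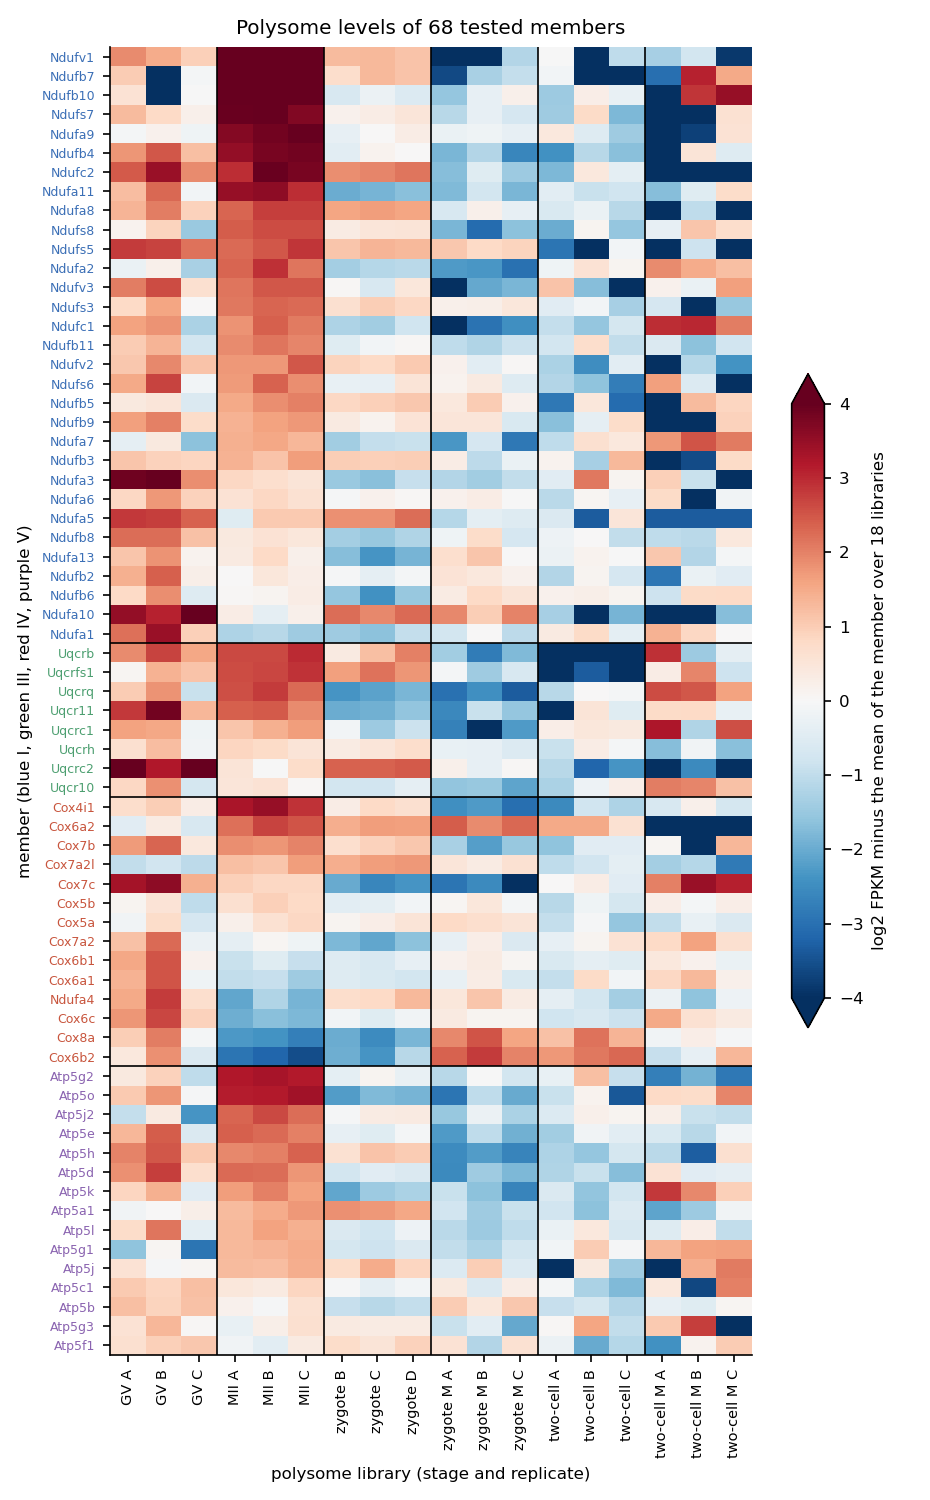
Polysome level of 68 of the 69 tested members (rows, grouped by complex) in the 18 polysome libraries (columns, by stage and replicate), as log2 FPKM minus the mean of that member over the libraries. Complex I, III and V members are mostly above their mean in MII, while Cox8a, Cox6b2, Cox6c and Ndufa4 of complex IV are below theirs.

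The summed polysome level of the 77 members was 1462 ± 744 FPKM (SD, n = 3) in GV, 1586 ± 133 in MII, 464 ± 37 in zygotes, 1336 ± 315 in zygote M, 1065 ± 301 at the interphase two-cell stage and 934 ± 53 in two-cell M. The number of members at 1 FPKM or more was 59.3 ± 5.5 in GV and 64.3 ± 0.6 in MII, and it was 44.0 ± 1.0 in zygote M. The sums of MII and zygote M were thus close although fewer members were present at 1 FPKM in zygote M. Cox8a and Cox6b2 together made up 2.17 ± 0.34% of the sum in MII polysomes and 71.2 ± 5.9% in zygote M polysomes. In GV this share was 29.8 ± 7.1%, in zygotes 11.7 ± 2.8%, 68.3 ± 0.5% in two-cell and then 25.2 ± 7.6%. Without the pair the sum was 1551 ± 131 FPKM in MII and 373 ± 9.7 in zygote M. These sums are dominated by a few members and are given as a description, with no test.

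**Figure D2:**
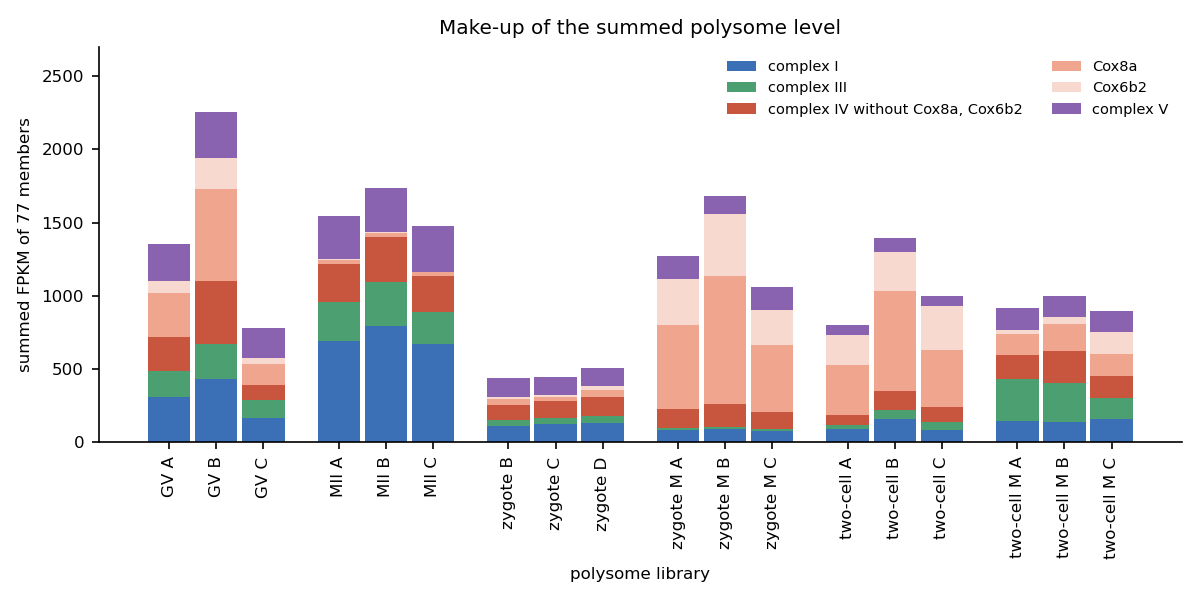
Summed FPKM of the 77 members in each of the 18 polysome libraries (bars), split by complex, with Cox8a and Cox6b2 drawn apart from the rest of complex IV. The pair makes up most of each zygote M and two-cell bar and little of each MII bar.

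Levels differed widely between the members of a complex. Over the 18 polysome libraries the highest mean was Ndufb11 in complex I at 66.1 FPKM, Uqcrq in complex III at 85.5, Cox8a in complex IV at 281 and Atp5b in complex V at 75.7. The lowest means were Ndufs1 at 0.072, Uqcrb at 0.59, Cox4i2 at 0.055 and Atp5s at 0.028 FPKM. Ndufs1, the largest iron-sulphur subunit of complex I, had a mean of at most 0.14 FPKM at any stage in polysomes, whereas Ndufv1 reached 105 FPKM. FPKM depends on the transcript model used for each gene, so differences of level between genes are less certain than differences between stages of one gene.

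Alternative subunits of complex IV were present at very different levels. Cox4i1, the usual form of the subunit that contacts regulators of the complex, was between 1.66 and 151 FPKM in polysome libraries, and Cox4i2, its hypoxia-linked form, did not pass 0.52 FPKM in any. Cox6b2, known as the testis form of the subunit facing cytochrome c, exceeded its somatic partner Cox6b1 in every polysome library, with means of 113 and 14.8 FPKM in GV and 327 and 5.23 in zygote M. Cox6a1, the liver-type form, was far above Cox6a2, the heart- and muscle-type form, in GV, with means of 62.98 and 1.30 FPKM. In MII the means were 9.59 ± 1.76 for Cox6a1 and 8.30 ± 1.37 for Cox6a2, and the libraries of both overlapped. Cox7a1, the muscle form, was under 0.1 FPKM in every polysome library of GV to zygote M, but was at 0.84, 0.35 and 0.50 FPKM at the interphase two-cell stage and 5.83, 11.1 and 3.69 FPKM in two-cell M. Its partner Cox7a2 was between 5.73 and 117 FPKM throughout. Cox8c, the testis form of Cox8, had a mean of 0.60 FPKM in MII polysomes and less at the other stages in polysomes, and 2.49 FPKM in the non-polysome MII pool, and Cox8b was not analysed here.

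The change from GV to MII oocytes, the meiotic M-phase, addressed how the members follow the resumption of meiosis. In polysomes 16 of the 69 members (23.2%) were called, 9 higher and 7 lower in MII, against 6.11% of all tested genes. The members that rose belong to complexes I, III and V with the exception of Cox4i1, and 6 of the 7 that fell belong to complex IV. The median log2 fold change was 0.60 over the members and 0.18 over all tested genes.

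In complex I, Ndufb7, a membrane-arm subunit, had the largest rise. Its polysome level was 1.18, 0.01 and 0.56 FPKM in GV and 18.9, 26.4 and 17.6 FPKM in MII, a log2 fold change of 6.78 ± 1.55 (SE) with an adjusted p of 0.0057. Since 1 GV library lies at the floor, the size of this fold depends on the floor, and the call is lost when GV replicate B is left out. Ndufa9, which sits at the junction of the peripheral and membrane arms, was at 1.07, 1.28 and 1.01 FPKM in GV and at 14.4, 16.6 and 17.9 FPKM in MII (log2 fold change 3.86 ± 0.94, limma adjusted p = 0.0097). Ndufa2, a peripheral-arm subunit, was at 14.6, 20.4 and 7.25 FPKM in GV and 88.5, 133 and 77.2 FPKM in MII (2.90 ± 0.39, limma adjusted p = 9.8e-06). All MII libraries lay above all GV libraries for these members. Ndufa11 also rose (2.20 ± 0.64, limma adjusted p = 0.036), and that call is lost in 5 of the 6 fits that leave out 1 library. Ndufa1, a small membrane-arm subunit, moved the other way, from 9.70, 23.0 and 4.08 FPKM in GV to 0.89, 0.98 and 0.79 in MII (-3.45 ± 0.60, limma adjusted p = 0.00029).

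Several catalytic core subunits of complex I were higher in every MII library without being called. Ndufv1 was at 10.7, 8.06 and 5.49 FPKM in GV and 115, 104 and 96.8 FPKM in MII, with a log2 fold change of 3.75 ± 1.98 and an adjusted p of 0.33 in the fit of all 36 libraries. The error of Ndufv1 in that fit is shared with embryo libraries in which it varied widely. Ndufs7 (35.2 ± 5.8 against 3.97 ± 1.42 FPKM) and Ndufs8 (27.0 ± 2.2 against 5.08 ± 3.42), which hold or flank the iron-sulphur clusters leading to ubiquinone, likewise missed the threshold. Ndufs3 did too, and the libraries of Ndufv2 overlapped.

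In complex III, Uqcrq, a small subunit near the ubiquinol site, was at 73.3, 128 and 19.7 FPKM in GV and at 220, 252 and 177 FPKM in MII (1.91 ± 0.48, limma adjusted p = 0.013). The call on Uqcrq is lost without GV replicate C or MII replicate B. Uqcrc2, a core subunit, showed the opposite values, 51.9, 22.1 and 81.2 FPKM in GV and 3.43, 2.38 and 4.01 in MII, and the difference was not called (-3.83 ± 1.23, limma adjusted p = 0.063). Ndufa10 of complex I resembled it, with 25.5 ± 12.1 FPKM in GV and 1.97 ± 0.45 in MII (-3.61 ± 1.31, limma adjusted p = 0.11). The GV and MII libraries did not overlap for either of these members. Uqcrc1 and Uqcrfs1, the Rieske iron-sulphur subunit, were not called, with means of 1.25 and 8.17 FPKM in MII.

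In complex IV, Cox8a was at 300.4, 629 and 143 FPKM in GV polysomes and at 31.3, 28.9 and 22.9 in MII polysomes (-3.45 ± 0.40, limma adjusted p = 1.5e-06). Cox6b2 was at 81.0, 217 and 40.7 FPKM in GV and at 8.08, 6.83 and 5.26 in MII (-3.76 ± 0.51, limma adjusted p = 9.5e-06). For both, every GV library lay far above every MII library. Cox6c, a small subunit of the membrane part, fell from 13.9, 25.9 and 7.73 to 1.04, 1.27 and 1.16 FPKM (-3.61 ± 0.47, limma adjusted p = 6.8e-06). Ndufa4 (-3.37 ± 0.54), Cox6a1 (-2.36 ± 0.49) and Cox6b1 (-2.18 ± 0.47) fell too, and all 6 were called in each of the 6 fits without 1 library. Cox4i1 went against them, with 22.0, 26.9 and 16.7 FPKM in GV and 130, 151 and 101 FPKM in MII (2.55 ± 0.52, limma adjusted p = 0.0020). Cox5a, Cox5b, Cox6a2, Cox7a2 and Cox7a2l were not called, although Cox5b (60.4 ± 6.3 against 35.2 ± 16.7 FPKM), Cox6a2 (8.30 ± 1.37 against 1.30 ± 0.50) and Cox7a2l (12.2 ± 2.8 against 2.52 ± 0.29) were higher in each MII library than in any GV library.

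In complex V the c-ring genes differed from each other. Atp5g1, Atp5g2 and Atp5g3 encode the same mature c subunit with different import sequences. Atp5g1 rose from 1.96, 6.33 and 0.79 to 14.7, 15.3 and 16.6 FPKM (2.86 ± 0.59, limma adjusted p = 0.0020), and Atp5g2 rose from a mean of 0.26 ± 0.15 to 1.98 ± 0.09 FPKM (3.13 ± 0.80, limma adjusted p = 0.015), a call lost without GV replicate C, MII replicate B or MII replicate C. Atp5g3 was at 8.31 ± 3.74 FPKM in GV and 5.89 ± 1.86 in MII, and its libraries overlapped. By mean FPKM the highest c-ring gene in polysomes was Atp5g3 in GV and Atp5g1 in MII. In GV the libraries of these genes overlapped, with Atp5g3 at 7.43, 12.4 and 5.08 FPKM. The principal transcript has 723 nucleotides for Atp5g3 and 4715 for Atp5g1, so the order between the genes is uncertain. Atp5j2, a membrane subunit, rose from 3.45, 8.53 and 1.31 to 33.4, 41.4 and 31.5 FPKM (3.38 ± 0.61, limma adjusted p = 0.00049). The catalytic beta subunit Atp5b was at 147, 120 and 145 FPKM in GV and 72.9, 62.1 and 97.7 in MII and was not called (-0.85 ± 0.39, limma adjusted p = 0.25), and neither were the alpha subunit Atp5a1 (45.0 ± 7.2 against 16.3 ± 2.0 FPKM) and the gamma subunit Atp5c1.

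The GV polysome libraries were uneven, with replicate B highest and replicate C lowest for Cox8a, Cox6b2, Uqcrq and Ndufa1. In a fit of only the 6 libraries compared, 33 members were called, 21 higher and 12 lower, in place of 16. Without GV replicate C or MII replicate B the falls, 8 and 7, outnumbered the 6 rises.

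**Figure D3:**
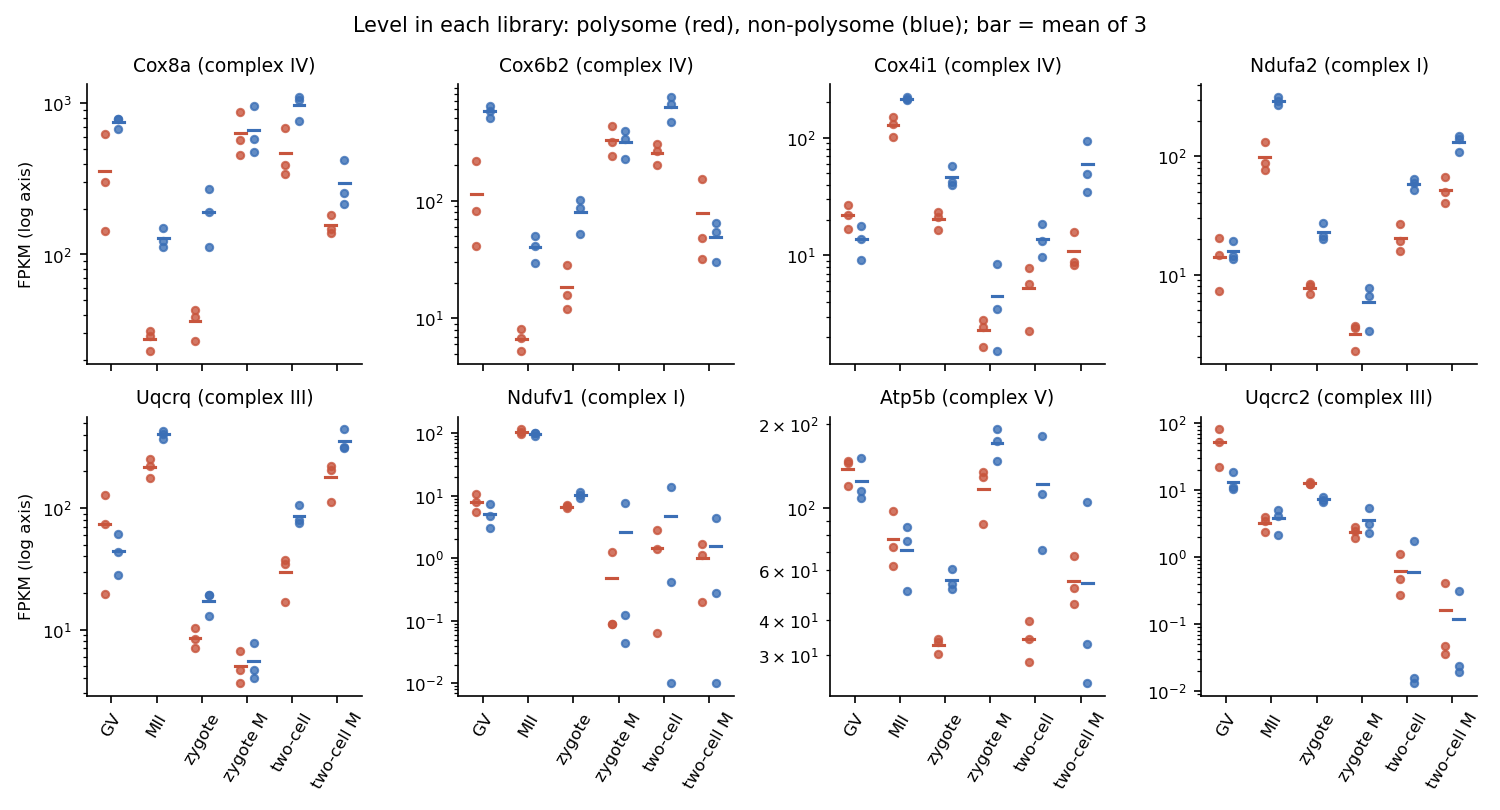
FPKM (log axis) of 8 members in every library of the 6 stages, polysome in red and non-polysome in blue, with a bar at the mean of 3. Cox8a and Cox6b2 are lowest in MII and zygote polysomes, Cox4i1, Ndufa2, Uqcrq and Ndufv1 are highest in MII, and Uqcrc2 is highest in GV.

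Entry of the zygote into M-phase was compared with the interphase zygote. Of the 69 members 9 (13.0%) passed both thresholds, 6 higher and 3 lower in M-phase polysomes, against 5.75% of all tested genes, and the median log2 fold change was -0.72 over the members and -0.43 over all genes. Cox8a rose from 38.8, 26.8 and 43.1 FPKM in zygotes to 576, 874 and 458 in zygote M (4.11 ± 0.40, limma adjusted p = 3.3e-08). Cox6b2 rose from 15.7, 11.9 and 28.3 to 314, 427 and 239.5 FPKM (4.19 ± 0.51, limma adjusted p = 1.4e-06). Both had fallen between GV and MII.

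Atp5b, the catalytic subunit of the ATP synthase, rose from 34.1, 30.1 and 33.2 to 130, 87.7 and 135 FPKM (1.83 ± 0.39, limma adjusted p = 0.0031). Ndufa13 (3.38 ± 1.20 against 0.55 ± 0.12 FPKM), Ndufb6 (5.89 ± 1.0 against 1.18 ± 0.37) and Cox7a2 (21.6 ± 6.9 against 6.83 ± 1.02) were higher as well. The call on Cox7a2 is lost in 5 of the 6 fits without 1 library, and that on Ndufb6 without zygote replicate C or zygote M replicate B. Cox4i1 fell from 16.5, 23.5 and 21.2 to 2.44, 2.82 and 1.66 FPKM (-3.16 ± 0.52, limma adjusted p = 0.00015). Cox4i1 thus moved against Cox8a and Cox6b2 in both oocytes and zygotes although the proteins join the same complex. Ndufa2 (-1.33 ± 0.39, limma adjusted p = 0.041) and Atp5h, a peripheral stalk subunit (-3.39 ± 0.95, limma adjusted p = 0.028), fell, and both calls are lost in every fit that leaves out 1 library.

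The balance of rises and falls depended on the fit. With only the 6 zygote libraries 33 members were called, 7 higher and 26 lower, and both 1 FPKM added to each value and quantile normalization gave more falls than rises. In the fit of all libraries 21 members had a positive log2 fold change and 48 a negative one. In complex I the core subunits Ndufv1 (0.48 ± 0.68 against 6.71 ± 0.39 FPKM) and Ndufs8 (1.11 ± 0.49 against 6.27 ± 0.46) lay lower in each zygote M library and were not called in the fit of all libraries.

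In the second cleavage division 18 of the 69 members (26.1%) differed between polysomes of interphase and M-phase embryos, 11 higher and 7 lower in two-cell M, against 36.3% of all tested genes. Most genes that were called in this comparison were lower in two-cell M, 2242 against 648, and the median log2 fold change was -1.17 over all genes and 0.18 over the members. With quantile normalization these medians were 0.22 and 0.82. By direction, 15.9% of the members were higher against 8.13% of all tested genes, and 10.1% were lower against 28.1%. The median of the members lay above that of all genes under both scalings.

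Complex III had 4 of its 8 members higher and 0 lower in two-cell M. Uqcrq rose from 16.9, 37.4 and 34.4 to 222, 205 and 112 FPKM (2.62 ± 0.48, limma adjusted p = 0.00012), and Uqcr10 from 4.94, 10.3 and 14.4 to 48.9, 46.0 and 26.4 FPKM (2.11 ± 0.61, limma adjusted p = 0.0078). Uqcrb, at the floor of 0.01 in all 3 two-cell libraries, was at 1.59, 0.076 and 0.16 FPKM in two-cell M, and Uqcrfs1 was at 1.5, 4.83 and 0.70 against 0.01, 0.12 and 0.031. The lower values of Uqcrb and Uqcrfs1 are near the reach of the depth. The call on Uqcr10 is lost without two-cell replicate A, and that on Uqcrfs1 without two-cell replicate A or two-cell M replicate B. The complex III sum was 231 ± 75 FPKM in two-cell M, against 46.5 ± 17.7 before M-phase.

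Atp5k, a small membrane subunit of the ATP synthase, had the largest rise among members whose higher mean was 10 FPKM or more, from 3.37, 1.71 and 3.05 to 36.4, 19.2 and 9.80 FPKM (2.87 ± 0.68, limma adjusted p = 0.0017). Ndufa2 rose from 15.8, 26.5 and 19.2 to 66.2, 49.5 and 40.7 FPKM (1.35 ± 0.39, limma adjusted p = 0.0085), and Cox6c from a mean of 2.40 ± 0.18 to 7.69 ± 3.48 FPKM (1.59 ± 0.47, limma adjusted p = 0.0097), a call lost without two-cell M replicate A. Cox8a fell from 343, 684 and 389 to 139, 183 and 147 FPKM (-1.54 ± 0.40, limma adjusted p = 0.0039) and Cox6b2 from 202, 265 and 299.6 to 31.9, 48.4 and 153 FPKM (-2.03 ± 0.51, limma adjusted p = 0.0026). The Cox8a and Cox6b2 libraries did not overlap between the groups. Cox6a2 was at 4.21, 4.25 and 2.26 FPKM in two-cell and listed at the floor of 0.01 in all 3 two-cell M libraries (limma adjusted p = 8.7e-05), and in both pools of two-cell M no library held more than the floor. Ndufc2, a membrane-arm subunit, was at 0.29, 1.35 and 0.78 FPKM in interphase and 0.010, 0.019 and 0.010 in two-cell M (limma adjusted p = 0.0023). The remaining calls were Ndufa7, Ndufc1, Cox7c and Atp5o, which were higher, and Ndufa8 and Ndufa9, which were lower with overlapping libraries. Atp5g2 was at 0.26 ± 0.20 and 0.039 ± 0.015 FPKM (limma adjusted p = 0.016), and its fold turned positive and lost its call with quantile normalization.

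Without two-cell M replicate B or two-cell M replicate C more members were called lower than higher, and with only the 6 libraries compared 11 were called, 8 higher and 3 lower.

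**Figure D4:**
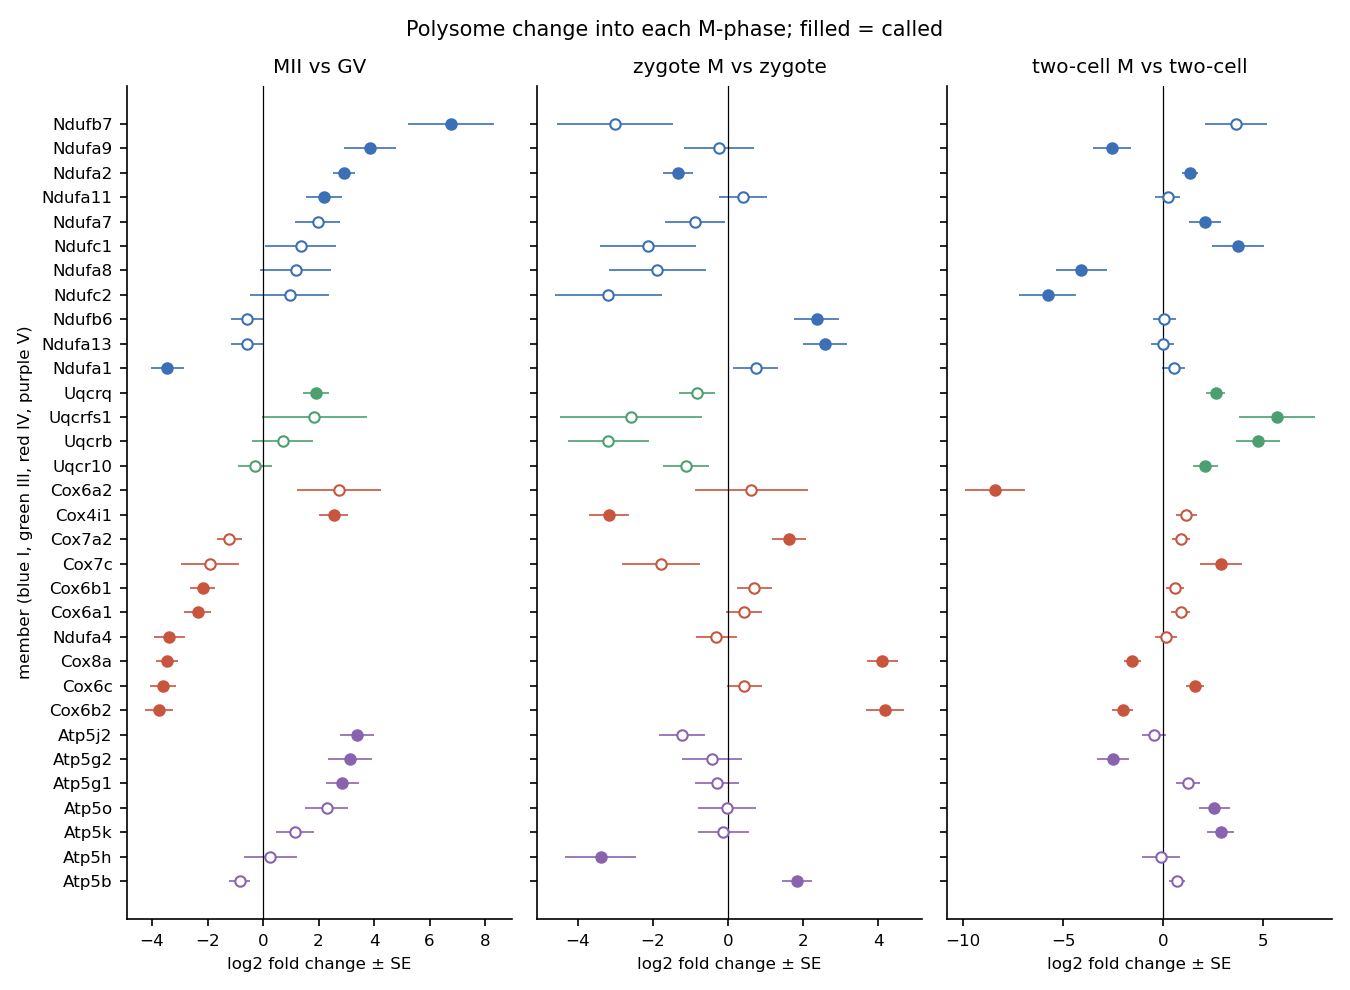
Log2 fold change with its standard error (horizontal axis) in polysomes for the 32 members called in at least 1 of the M-phase steps, MII against GV, zygote M against zygote and two-cell M against two-cell, with filled points for called members. Cox8a and Cox6b2 lie left of 0 in oocytes, right of it in zygotes and left of it in two-cell embryos, and Cox4i1 and Ndufa2 lie right of 0 in oocytes and left of it in zygotes.

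Interphase stages were compared with GV oocytes. In GV against zygote 17 of the 69 members (24.6%) were called and all 17 were higher in GV polysomes, against 5.61% of all tested genes called in either direction and 3.88% called higher in GV. The median log2 fold change was 0.91 over the members and -0.01 over all genes. Complex IV had 7 called members, Cox6a1, Cox6b1, Cox6b2, Cox6c, Cox7a2, Cox7c and Cox8a. Ndufa1 (12.3 ± 9.7 against 0.86 ± 0.22 FPKM, limma adjusted p = 0.00022), Uqcr11 of complex III (17.7 ± 13.3 against 0.63 ± 0.10, limma adjusted p = 0.0051) and Ndufa3 (22.4 ± 19.6 against 0.52 ± 0.14, limma adjusted p = 0.047) had the largest folds among members that reached 10 FPKM in the GV mean. The call on Ndufa3 is lost in 5 of the 6 fits without 1 library. Ndufb8 (33.2 ± 12.1 against 3.32 ± 0.38 FPKM, limma adjusted p = 0.00019) and Atp5b (138 ± 15 against 32.5 ± 2.1, limma adjusted p = 0.00081) were also higher. Atp5a1 had the opposite order without a call, 51.5 ± 5.2 FPKM in zygotes and 16.3 ± 2.0 in GV. Leaving out GV replicate B reduced the calls to 8, and with only the 6 libraries compared there were 27, of which 3 were lower in GV.

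In GV against two-cell 21 members (30.4%) were called, 19 higher and 2 lower in GV, against 16.7% of all tested genes, with medians of 1.84 and 0.85. The largest folds among members that reached 10 FPKM were in Ndufa10, from 21.4, 15.9 and 39.1 FPKM in GV to 0.75, 0.044 and 0.52 in two-cell (6.52 ± 1.31, limma adjusted p = 0.00081), and in Uqcrc2, from 51.9, 22.1 and 81.2 to 1.12, 0.27 and 0.47 (6.43 ± 1.23, limma adjusted p = 0.00050). Uqcr11 (4.50 ± 1.01, limma adjusted p = 0.0025) followed. Atp5g1 was lower in GV (-1.78 ± 0.59, limma adjusted p = 0.037), as was Cox6b2 (-1.5 ± 0.51, limma adjusted p = 0.041), with overlapping libraries for each. These calls are lost in 4 and 5 of the 6 fits without 1 library. Leaving out 1 library gave between 12 and 24 calls, with 12 without GV replicate A or GV replicate B. With only the 6 libraries compared 18 members were called, of which 12 were shared with the 21.

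M-phases were then compared with each other. In MII against zygote M 33 of the 69 members (47.8%) were called, 29 higher and 4 lower in MII, against 12.4% of all tested genes, and the median log2 fold change was 2.11 over the members and 0.46 over all genes. Complex I had 13 members higher and 0 lower, complex III 5 and 0, and complex V 9 and 0, whereas complex IV had 2 higher and 4 lower. Ndufv1 was at 115, 104 and 96.8 FPKM in MII and 0.090, 0.090 and 1.26 in zygote M (8.91 ± 1.98, limma adjusted p = 0.0025). Ndufb7 (7.09 ± 1.55) of complex I was also higher in MII. Cox4i1 was at 127 ± 25 FPKM against 2.31 ± 0.59 (5.80 ± 0.52, limma adjusted p = 6.2e-09) and Uqcrq at 216 ± 38 against 4.98 ± 1.55 (5.47 ± 0.48, limma adjusted p = 4.8e-09). Atp5g1, Atp5g2, Atp5e, Atp5j2, Atp5k and Atp5h were among the complex V members that were higher in MII. Cox6b2 (-5.59 ± 0.51), Cox8a (-4.48 ± 0.40), Ndufa4 (-2.35 ± 0.54) and Cox6c (-2.0 ± 0.47) were lower in MII. Between 28 and 30 members were called in the 6 fits without 1 library.

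In MII against two-cell M 36 members (52.2%) were called, 30 higher and 6 lower in MII, against 53.0% of all tested genes, so the count was near the background. The medians were 2.16 over the members and 2.64 over all genes, and with quantile normalization 0.77 and 0.14. Cox6b2, Cox6c, Cox8a, Ndufa1, Cox6a1 and Cox7a2 were lower in MII, and 5 of these 6 belong to complex IV. Ndufc2 (12.5 ± 4.1 FPKM against 0.013 ± 0.005), Ndufs7 (35.2 ± 5.8 against 1.18 ± 1.96) and Ndufv1 (105 ± 9 against 1.02 ± 0.77) had the largest folds among the abundant members that were higher in MII. The two-cell M values of Ndufc2 lay at or near the floor, so the size and rank of its fold depend on the floor. In complex I, 5 of 6 tested members of the Q module, which passes electrons to ubiquinone, and 2 of 7 of the N module, which takes them from NADH, were higher in MII, against 45.2% of all tested genes. Of 19 tested members of the membrane arm 11 were higher and 1 lower. In the non-polysome pool 5 of 6 and 6 of 7 members of the Q and N modules were higher, at a median of 3.39 over all genes. In polysomes of MII against zygote M these counts were 3 of 6 and 4 of 7, against 8.95% of all tested genes. The difference between the modules was not tested. The erythroid markers given above are in two-cell M and not in MII.

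The opposite courses of single members between M-phases were also expressed as differences of the changes within the same fit. The members given had both changes called with opposite signs. A called difference was therefore nearly fixed in advance and serves as a measure of size. The change of Cox8a from zygote to zygote M exceeded that from GV to MII by 7.56 ± 0.57 on the log2 scale (limma adjusted p = 4.9e-10), and for Cox6b2 by 7.95 ± 0.72 (limma adjusted p = 9.4e-09). For Cox4i1 the same difference was -5.71 ± 0.74 (limma adjusted p = 3.5e-06) and for Ndufa2 -4.23 ± 0.56 (limma adjusted p = 4.0e-06). Each of these differences was called in all 12 fits that left out 1 library.

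In the non-polysome pool 25 members rose and 7 fell from GV to MII, and 3 rose and 20 fell from zygote to zygote M, against 9 and 7 and 6 and 3 in polysomes. Of all tested genes 16.6% and 10.4% were called in the non-polysome pool in these steps, with medians of 0.44 and -0.87. Cox8a was at 794, 791 and 681 FPKM in non-polysome GV libraries and 150, 123 and 113 in MII ones, and it was at 272, 112 and 191 in zygote and 583, 955 and 476 in zygote M. Cox4i1 was at 17.9, 9.20 and 13.8 FPKM in GV and 216, 222 and 210 in MII non-polysome libraries. The median log2 fold change of the members from GV to MII was 1.75 in the non-polysome pool and 0.60 in polysomes. The polysome change minus the non-polysome change was negative for 65 of the 69 members in oocytes and positive for 61 in zygotes, with medians of -1.32 and 1.41 over the members and -0.59 and 0.60 over all genes. The interaction contrast, polysome change minus non-polysome change, called 0 of 69 members in MII against GV (0.163% of all tested genes) and 0 in zygote M against zygote (0.289%). At an unadjusted p under 0.05 in limma there were 2 and 11 members. With only the 12 libraries compared 0 and 6 members were called, with 16 and 30 at an unadjusted p under 0.05.

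The same interaction in the second cleavage called 4 members (5.80%), against 5.75% of all tested genes. Atp5b was at 113, 182 and 71.1 FPKM in non-polysome two-cell libraries and 32.9, 105 and 23.7 in two-cell M ones, while its polysome mean went from 34.0 to 54.9 FPKM, a difference of changes of 2.07 ± 0.56 (limma adjusted p = 0.023). Ndufv3 and Ndufc2 also passed, with values near the floor in at least 1 of the groups. The 4 calls were lost, to 0, with only the 12 libraries compared, at 4 members with an unadjusted p under 0.05.

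Polysome and non-polysome levels of the same stage were compared to ask which members were relatively richer in polysomes. In MII 10 of the 69 members (14.5%) were called and all were lower in polysomes, against 0.753% of all tested genes called in either direction and 0.703% called lower. The median log2 difference, polysome minus non-polysome, was -1.14 over the members and -0.04 over all genes, and 61 of the 69 members were negative. Complex IV gave 7 of the 10 calls. Cox6c was at 1.04, 1.27 and 1.16 FPKM in polysomes and 10.9, 13.7 and 7.53 in the non-polysome pool (-3.17 ± 0.47, limma adjusted p = 0.0011), Cox6b2 at 6.72 ± 1.41 against 40.4 ± 10.4 (-2.58 ± 0.51, limma adjusted p = 0.0074) and Cox6a1 at 9.59 ± 1.76 against 50.03 ± 9.7 (-2.38 ± 0.49, limma adjusted p = 0.011). Leaving out 1 library gave between 3 and 6 calls, while a fit of only the 6 MII libraries called 34 members, all lower. In the 6 fits that leave out 1 library Cox6c, Ndufa4 and Cox8a were called each time, and Ndufa2, Uqcrh, Cox6b1 and Cox7a2 in 0. The granulosa and cumulus markers summed to between 0.15 and 23.6 FPKM in the non-polysome MII libraries, and their part in this difference was not tested. The upper sum was almost all Inha in replicate C. Inha was at 1.66, 0.044 and 23.5 FPKM, while Amh, Foxl2, Has2 and Tnfaip6 were at the floor in each of these libraries.

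In GV 4 members (5.80%) were called, all lower in polysomes, against 4.96% of all genes called in either direction and 2.35% called lower. Leaving out 1 library gave between 2 and 7 calls. Ndufa4 was at 8.07, 19.5 and 4.46 FPKM in polysomes and 107, 95.4 and 76.2 in the non-polysome pool (-3.37 ± 0.54, limma adjusted p = 0.00030), and Cox6b2 (-2.67 ± 0.51, limma adjusted p = 0.0017) and Ndufa1 (-2.32 ± 0.60, limma adjusted p = 0.022) were lower too. In zygotes 4 members (5.80%) were called, against 1.38% of all genes, and again all were lower in polysomes, as were 1.34% of all genes. Leaving out 1 library gave between 1 and 3 calls. Cox8a (-2.34 ± 0.40, limma adjusted p = 0.00073), Cox6b2 (-2.14 ± 0.51, limma adjusted p = 0.022) and Ndufa2 (-1.56 ± 0.39, limma adjusted p = 0.038) were among them, 63 of 69 members were negative, and a fit of only the 6 zygote libraries called 35 members, 34 of them lower. In GV the fit of only the 6 libraries called 1. With the pools of a gradient as a replicate block 6 members were called in GV, where Cox6a1 (-1.54) and Cox8a (-1.33) passed in addition.

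In zygote M a single member (1.45%), Ndufa7, was called, against 1.92% of all genes, with 0.37 ± 0.31 FPKM in polysomes and 0.074 ± 0.106 outside them, overlapping libraries and no call with only the 6 libraries compared. The median difference was 0.24 over the members and 0.31 over all genes. Cox8a was at 576, 874 and 458 FPKM in polysomes and at 583, 955 and 476 outside them.

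Among two-cell libraries 9 members (13.0%) were called, all lower in polysomes, against 16.1% of all genes called in either direction and 6.38% called lower. Leaving out 1 library gave between 6 and 15 calls, and with the pools of a gradient as a replicate block 13 were called, among them Cox5b, Cox6a1 and Cox8a. Ndufa4 (1.67 ± 0.56 against 13.6 ± 3.5 FPKM), Cox6c (2.40 ± 0.18 against 12.6 ± 2.7) and Ndufb6 (4.55 ± 0.21 against 20.4 ± 3.0) had the largest differences among called members that reached 10 FPKM and whose libraries did not overlap. In two-cell M 14 members (20.3%) were called, 11 lower (15.9%) and 3 higher in polysomes, against 14.8% of all genes called in either direction and 5.06% called lower. Under the same limits Atp5h (-3.29 ± 0.95), Uqcrh (-2.85 ± 0.47) and Cox4i1 (-2.39 ± 0.52) lay furthest below their non-polysome level. With only the 6 libraries compared 5 members were called before M-phase and 0 in M-phase, with 22 and 13 at an unadjusted p under 0.05 in limma. The summed erythroid markers were higher outside polysomes than in them in two-cell embryos, and in two-cell M they lay between 0.04 and 52.6 FPKM outside polysomes against 24.4 to 42.5 in them. Their part in these differences was not tested.

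The fraction difference went with coding length at some stages. In MII the 20 members with a coding length up to 300 nucleotides had a median log2 difference of -1.92, the 23 with 301 to 450 nucleotides -1.42, the 9 with 451 to 600 -0.78, the 8 with 601 to 900 -0.28 and the 9 with over 900 0.11. All tested genes with a length ran from -1.21 to 0.33 over the same classes. Spearman's rho across the 69 members was 0.56 in GV, 0.76 in MII and 0.71 in zygotes. It was 0.14 in zygote M, 0.15 at the interphase two-cell stage and 0.26 in two-cell M. Over the 6341 genes with a length the values were 0.082, 0.33, 0.23, -0.015, 0.23 and 0.15 in the same order. These correlations are across genes that share libraries and are a description. Coding lengths were those of the principal GENCODE transcript, whereas the deposited FPKM were computed on RefSeq genes. A fixed length of a gene cancels between its pools.

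**Figure D5:**
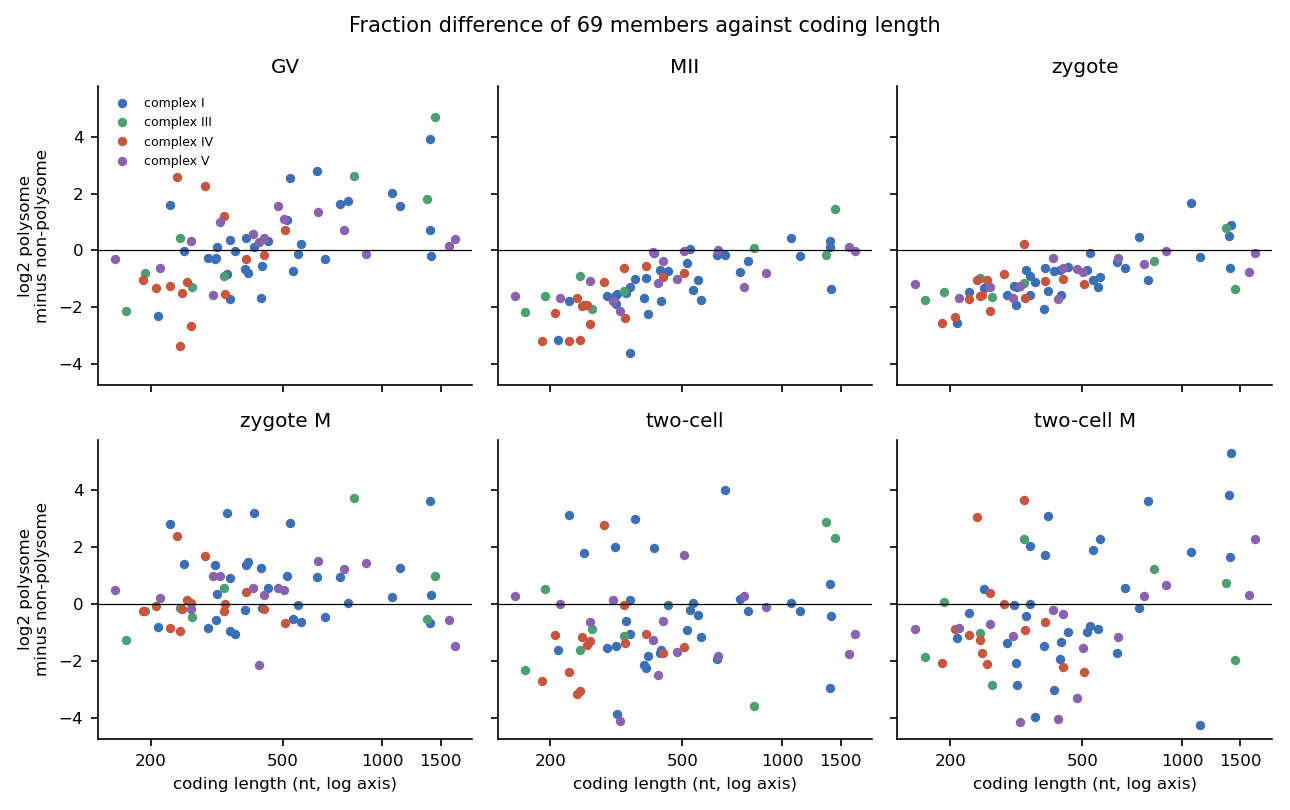
Log2 polysome minus non-polysome level (vertical axis) against coding length (horizontal, log axis) for the 69 tested members at each stage, coloured by complex. The median of members up to 300 nucleotides was -1.92 in MII, -1.56 in zygotes and -0.14 in zygote M, in each case the lowest of the length classes.

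Uqcrc2 and Ndufa10, with coding lengths of 1359 and 1065 nucleotides, were at the upper end in GV, where Uqcrc2 was at 51.9, 22.1 and 81.2 FPKM in polysomes and 10.6, 11.1 and 18.4 outside them. Cox8a, at 207 nucleotides, and Ndufa1, at 210, were below the median of the members in MII and zygotes. Cox4i1, at 507 nucleotides, was at 127 ± 25 FPKM in MII polysomes against 216 ± 6 outside them and was not called. The parts of length and of complex membership in these differences were not tested.

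Other nuclear genes of the pathway were counted in the same way. Of 45 assembly factors, which help to build the complexes without staying in them, 28 were tested. From GV to MII 3 of the 28 were higher and 1 lower (median 1.20), from zygote to zygote M 0 and 0 (-0.81) and from two-cell to two-cell M 2 and 7 (-0.30). Among all tested genes 6.11%, 5.75% and 36.3% were called in these steps, in the same order. In MII against zygote M 5 were higher and 0 lower (median 1.75), with 12.4% of all tested genes called. The 5 genes of complex II, which links the citric acid cycle to the chain, and cytochrome c, the carrier between complexes III and IV, gave 0 calls in the steps of oocytes and zygotes, and 2 of the 5 fell in the second cleavage. Subunits encoded in mitochondrial DNA were not analysed here.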

How the data were processed

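The authors trimmed reads with Trim Galore 0.4.1, mapped them to GRCm38 with STAR 2.5.3a, quantified RefSeq genes and deposited normalized FPKM, with a lowest value of 0.01. Of 38 listed samples 2, replicate A of zygotes in both pools, had no column among the normalized FPKM values and were not used here. Whole reads were not recovered from the low values, so no count test was run. A linear model with 12 group means, over 36 libraries, was fitted to log2 FPKM without a pseudocount (limma 3.58.1, R 4.3.3, empirical Bayes trend). Tests were two-sided. The members, gene lists and alternatives were chosen with earlier results of these data known.

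Named members were the core subunits and isoform sets, the highest and lowest of each complex, and in each comparison the 3 largest rises and 3 largest falls among called members that reached 10 FPKM and whose libraries did not overlap. Other called members are named where a count needs them and were chosen after their values were seen. Of the core subunits 1 is counted with the others and not reported here by name. Alternatives were 1 FPKM added, no minimum, quantile normalization, only the libraries compared, a replicate block and leaving out each library. Coding lengths came from GENCODE M21 and promoter windows from RefSeq. Polysome and non-polysome libraries of one stage and letter come from one gradient and are paired by design, and their deviations correlated at 0.076 on average (6 of 18 pairs over 0.1). The fit was tested on simulated data with known changes, and at the larger spread tried it called only a minority of them. The median residual SD on the log2 scale was 1.28 for the members and 1.63 for all tested genes, so a member that was not called may still have changed. Python 3.11.15 with pandas 2.3.3 and matplotlib 3.10.9 was used.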

Additional observations from a re-analysis of the deposited data

Results flagged for a closer look

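Some members changed in opposite directions in different M-phase steps in polysomes, and the difference between the changes was also past an adjusted p of 0.05 in limma over all tested genes. Members are listed only where both changes were called with opposite signs. A called difference was then nearly fixed in advance, also with 1 library left out, and it adds no separate support. Between the zygote step and the oocyte step the log2 changes differed by 7.56 for Cox8a (4.11 against -3.45), by 7.95 for Cox6b2 (4.19 against -3.76), by -5.71 for Cox4i1 (-3.16 against 2.55) and by -4.23 for Ndufa2 (-1.33 against 2.90). Between the two-cell step and the oocyte step they differed by 5.20 for Cox6c (1.59 against -3.61), by -6.41 for Ndufa9 (-2.55 against 3.86) and by -5.62 for Atp5g2 (-2.49 against 3.13). The interphase and M-phase two-cell libraries of Ndufa9 overlapped, and the two-cell change of Atp5g2 became 0.62 (adjusted p 0.60) with quantile normalization. The zygote change of Ndufa2 lost its call in every fit without 1 library. Between the two-cell step and the zygote step they differed by -5.65 for Cox8a (-1.54 against 4.11), by -6.22 for Cox6b2 (-2.03 against 4.19) and by 2.68 for Ndufa2 (1.35 against -1.33). Each of these 10 differences was called in all 12 fits without 1 library.

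From two-cell to two-cell M the change in polysomes differed from that in the non-polysome pool for 4 of the 69 members (5.8%) in limma. Of all tested genes 5.75% were called, so the count was near the background. All 4 calls were lost with only the 12 libraries compared. The difference was 2.07 for Atp5b (0.68 against -1.38), 5.74 for Ndufv3 (2.18 against -3.56) and -6.98 for Ndufc2 (-5.77 against 1.21). They were called in 8, 4 and 5 of the 12 fits without 1 library, in that order. Ndufv3 and Ndufc2 had values near the floor in at least 1 of the groups, so the size of their differences depends on the floor.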

How the results depend on the processing

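Counts of called members depended on the fit, and the cause was not tested. With 1 FPKM added they were 33 for MII against GV and 16 (6 higher, 10 lower) for zygote M against zygote, and for polysome against non-polysome 14 in GV, 21 in MII, 10 in zygote, 0 in zygote M and 19 in two-cell. Quantile normalization gave 28 for MII against GV and 16 (7 higher, 9 lower) for zygote M against zygote, between pools 10 in GV, 8 in zygote, 0 in zygote M and 6 for two-cell M, 2 for the second-cleavage interaction, and 0.62 (adjusted p 0.60) for the log2 change of Atp5g2 in the second cleavage. With only the libraries compared the counts were 33 for MII against GV, 33 (7 higher, 26 lower) for zygote M against zygote, 11 for two-cell M against two-cell and 27 for GV against zygote. Between pools that fit gave 1 in GV, 34 in MII, 35 in zygote, 0 in zygote M, 5 at two-cell and 0 at two-cell M, and for the interactions 6 in zygotes and 0 in the second cleavage. Without a minimum the second-cleavage interaction gave 1.

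Leaving out 1 library gave 13 to 15 calls for MII against GV, 5 to 7 for zygote M against zygote, 15 to 18 for two-cell M against two-cell, 8 to 18 for GV against zygote, 12 to 24 for GV against two-cell, 28 to 30 for MII against zygote M and 30 to 38 for MII against two-cell M. Between pools the ranges were 2 to 7 in GV, 3 to 6 in MII, 1 to 3 in zygote, 0 to 1 in zygote M, then 6 to 15 for two-cell and 12 to 17 for two-cell M. The interactions gave 0 in oocytes, 0 to 2 in zygotes and 1 to 8 in the second cleavage, and the stage effect 53 to 57. Falls outnumbered rises for MII against GV without GV replicate C (14) or MII replicate B (13).

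Across stages the replicate letters were not taken as a pairing. Deviations of same-letter polysome libraries correlated at 0.021 on average, with a range from -0.090 to 0.157. Pools of a gradient, which are paired by design, correlated at only 0.076. This measure is therefore too weak to exclude a pairing by letter. With the letter as a replicate block the zygote M against zygote count was 9 (4 higher, 5 lower), of which 6 were shared with the 9 called without it, and GV against two-cell gave 24, of which 18 were shared with the 21. With the gradient as a replicate block the pools differed for 6 members in GV, 10 in MII, 4 in zygote, 1 in zygote M, 13 for two-cell and 16 for two-cell M, which held all members called without it. With quantile normalization 7 were called between two-cell pools, of which 3 were shared with the 9. In the second cleavage falls outnumbered rises without two-cell M replicate B (15 calls) or C (18), and the interaction fell to 1 call without two-cell M polysome replicate C or two-cell non-polysome replicate B. Levels near the floor rest on few reads at the estimated depths.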

Other observations

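Ribosomal protein genes were counted beside the members in polysomes. Of 73 tested mitochondrial ribosomal protein genes, which build the ribosome that translates mitochondrial mRNA, 6 rose and 1 fell from GV to MII (median log2 fold change 0.88), 0 and 1 from zygote to zygote M (-0.70) and 7 and 11 in the second cleavage (-0.12). Of 87 tested cytosolic ribosomal protein genes 21 rose and 5 fell from GV to MII (1.47), 3 and 19 in zygote M (-0.97) and 57 and 1 in two-cell M (2.73). Of all tested genes 6.11%, 5.75% and 36.3% were called in these steps, the last split into 8.13% higher and 28.1% lower.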
